A study of Mus musculus with 6 samples.

Results

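Mitochondrial ribosomal protein genes were examined in mouse myoblasts, cells that divide and later fuse into muscle fibres, grown on fibronectin or on collagen I. Their members were chosen by name: every probe set of the array with exactly 1 gene symbol made of Mrpl or Mrps and a number, with an ending letter allowed, was kept. This gave 156 probe sets of 76 genes, out of 18194 genes with a probe set of their own, of which 47 carry large subunit names (Mrpl, 104 probe sets) and 29 small subunit names (Mrps, 52 probe sets). No measured value chose a member, but the group was selected on account of results of this same comparison, so the counts over its members are a description and support nothing by themselves.

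Hindlimb muscle was the source of the cells, taken from male C57BL/6JRj mice aged 9 to 15 weeks. Both groups were kept for 72 hours in the medium Ham's F-10, to which 20% serum and 2.5 ng/ml basic fibroblast growth factor had been added, and differed in the coating of the dish. Fibronectin is a matrix glycoprotein and collagen I a fibrillar collagen, and both are bound by integrins at the cell surface. Total RNA of 3 samples per coating (6 samples) was measured on a mouse array from Affymetrix, to ask how transcript levels differed between the coatings. Whether the samples are separate cultures or animals is not stated in the labels, and the p-values therefore reflect a spread between samples that may be technical.

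The mitochondrial ribosome, or mitoribosome, makes the few respiratory chain proteins that are still encoded in mitochondrial DNA. Its RNA comes from mitochondrial DNA, while all of its proteins are encoded in the nucleus, made in the cytosol and imported. Some of these proteins descend from the bacterial ribosome, and others were added later in mitochondria. The small subunit reads the messenger RNA, and the large subunit joins amino acids and releases the growing chain through an exit tunnel at the inner membrane. In skeletal muscle, mitochondrial content changes as myoblasts leave the cell cycle and form fibres.

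The promoters of 4 members are shown because these members had the smallest p-value in each direction within each subunit. Mrpl33 and Mrps27 were higher on fibronectin, Mrps18a was lower, and Mrpl34 had the smallest p-value among large subunit genes with a negative change, although it did not pass the test. Each window is 300 bases long, 250 before and 50 after the transcription start, from RefSeq on the assembly GRCm38.p6. All 4 are on the forward strand, at chr5:31613701-31614000 for Mrpl33, chr8:71464676-71464975 for Mrpl34, chr13:99344536-99344835 for Mrps27 and chr17:46110754-46111053 for Mrps18a. Capitals mark matches to a core motif of the Ets family (CCGGAAG, or CTTCCGG on the other strand) and of Yy1 (AAGATGG).
Mrpl33: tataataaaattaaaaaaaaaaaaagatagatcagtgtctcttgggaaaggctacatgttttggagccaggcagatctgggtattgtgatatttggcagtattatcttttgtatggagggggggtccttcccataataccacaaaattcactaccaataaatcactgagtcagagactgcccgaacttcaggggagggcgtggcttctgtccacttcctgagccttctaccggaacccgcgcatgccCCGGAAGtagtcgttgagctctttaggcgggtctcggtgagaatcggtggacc
Mrpl34: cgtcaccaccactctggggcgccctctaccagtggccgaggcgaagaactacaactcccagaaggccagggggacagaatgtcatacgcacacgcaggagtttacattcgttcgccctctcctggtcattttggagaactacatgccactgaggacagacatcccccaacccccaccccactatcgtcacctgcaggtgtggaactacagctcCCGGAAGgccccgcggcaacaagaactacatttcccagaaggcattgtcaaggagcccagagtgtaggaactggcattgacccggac
Mrps27: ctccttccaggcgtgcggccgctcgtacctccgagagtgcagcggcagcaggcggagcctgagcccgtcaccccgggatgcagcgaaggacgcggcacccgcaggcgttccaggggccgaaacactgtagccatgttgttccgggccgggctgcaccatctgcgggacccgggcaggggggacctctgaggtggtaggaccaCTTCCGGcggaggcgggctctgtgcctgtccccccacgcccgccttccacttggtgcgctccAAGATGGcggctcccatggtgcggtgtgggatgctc
Mrps18a: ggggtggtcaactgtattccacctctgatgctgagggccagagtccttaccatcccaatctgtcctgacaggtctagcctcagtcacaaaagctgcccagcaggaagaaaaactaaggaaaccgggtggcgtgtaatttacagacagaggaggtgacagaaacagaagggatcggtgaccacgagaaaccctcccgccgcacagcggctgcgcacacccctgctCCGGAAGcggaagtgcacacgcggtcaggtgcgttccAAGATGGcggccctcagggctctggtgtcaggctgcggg
All 4 windows held the Ets core, with its first base at -3 in Mrpl33, -37 in Mrpl34, -48 in Mrps27 and -26 in Mrps18a, counted from the start site. The Yy1 core lay just inside the transcript in Mrps27, at 15, and in Mrps18a, at 12. It was not found in the windows of Mrpl33 and Mrpl34. These 4 windows were picked by p-value, and a link between a motif and the direction of change was not tested.

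Of the 76 members, 67 were in the promoter table, and the 4 motifs were searched on both strands, none being part of another. The Ets core was present for 25 of 67 members (37.3%), against 20.9% of 8903 tested genes in the table and 9.93% of all 27025 genes in it. The Yy1 core was present for 13 members (19.4%), against 8.66% of tested genes and 7.28% of all genes. A core of Nrf1, a factor known for driving nuclear genes of mitochondria, was searched as GCGCANGCG and found for 15 members (22.4%), against 16.1% of tested genes and 7.03% of all genes. The E-box CACGTG, which Myc and related factors bind, was found for 5 members (7.46%), against 12.2% of tested genes and 8.09% of all genes. At least 1 of the first 3 motifs was present for 8 of 15 members that were higher on fibronectin (53.3%) and for 33 of 51 that passed in neither direction (64.7%). The same held for 62.7% of the 67 members, 38.6% of tested genes and 21.4% of all genes. A match is a run of letters and was not tested as a binding site.

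On fibronectin 21 of the 76 members were higher and 2 were lower, at an adjusted p under 0.05 in limma's moderated test adjusted by Benjamini-Hochberg over the 10941 genes tested. Among all genes tested 19.9% were higher and 20.2% were lower, 40.1% in either direction, while 27.6% of members were higher and 2.63% lower. The changes were small: the median log2 change, fibronectin minus collagen, was 0.07 over the members and 0.00401 over all genes, and members lay between -0.42 and 0.30. No member changed by 1.5-fold or more, against 5.23% of all genes. The 23 members that passed had a median size of 0.18 on the log2 scale, against 0.30 for all genes that passed. In all, 57 members had a positive and 19 a negative change.

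The samples of the coatings did not overlap for 33 members with the higher values on fibronectin and for 6 with the lower values there. Over all genes tested the same held for 27.4% and 25.9%. All 76 members were bright enough to be tested, with mean log2 signals between 5.74 and 9.99. Of the 5640 tested genes with a mean signal in that range, 23.3% were higher, 19.8% were lower and the median change was 0.02. Bulk RNA cannot tell fewer cells of a type from less RNA per cell.

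The count of 21 higher members changed with single samples and with the filter, and so did the share of all genes. There were 10 without collagen replicate 2, 12 without collagen replicate 3, 12 without fibronectin replicate 1 and 9 without fibronectin replicate 2, and 8 when dim probe sets were not removed before adjustment. In the same order 14.9%, 17.4%, 15.1%, 15.0% and 8.26% of all genes tested were higher, against 19.9% as reported and 27.2% after centring. Centring each sample on its median gave 30, with 66 positive and 10 negative members, and moved the share of higher genes among all genes called from 49.6% to 64.4%. The median of the members lay 0.07 above that of all genes in both scalings. Centring shifts every gene by the same amount, so this distance could not change.

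**Figure D1:**
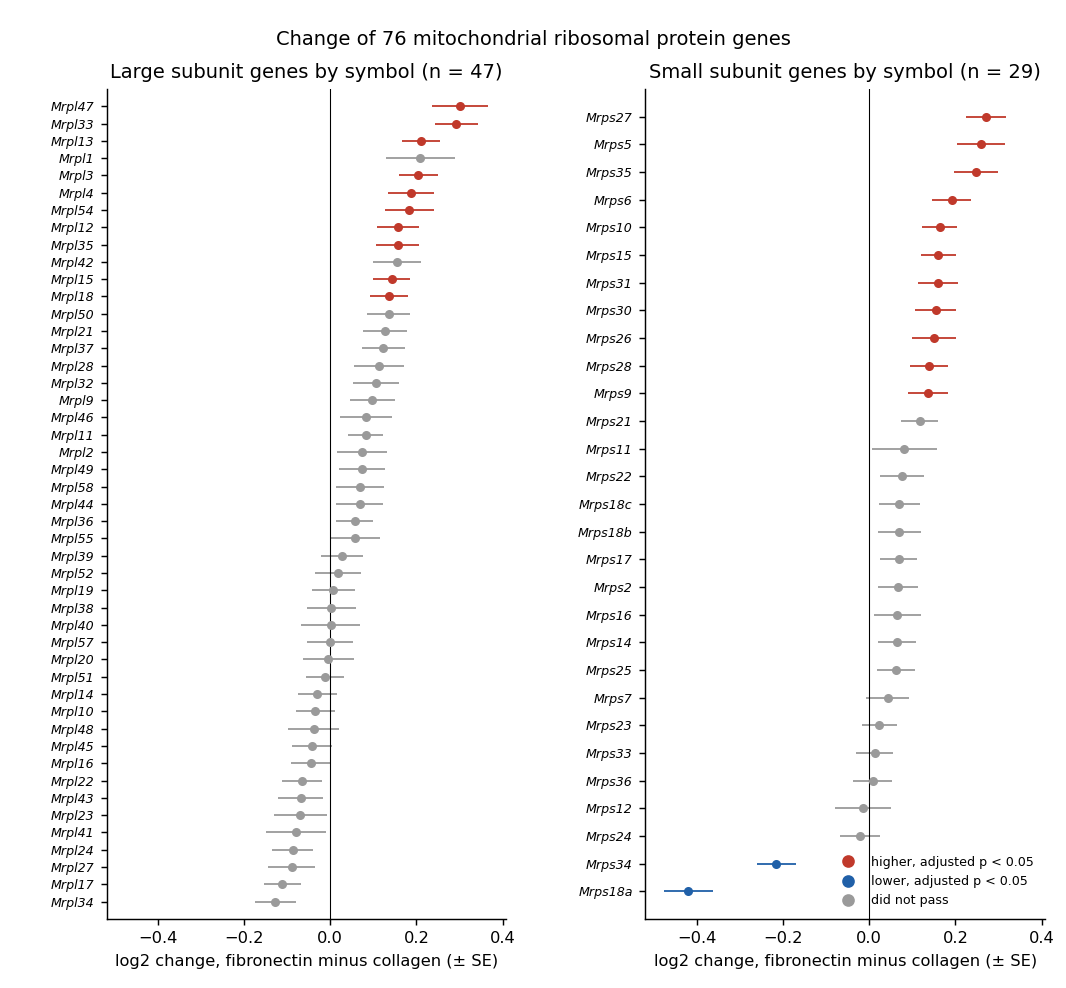
Each point is the log2 change (fibronectin minus collagen, x axis) of 1 gene with its SE, in the 47 large subunit genes on the left and the 29 small subunit genes on the right, ordered by change. Red points passed the adjusted p of 0.05 upwards (10 large, 11 small), blue points downwards (2, Mrps18a and Mrps34), and grey points did not pass.

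In the large subunit 10 of 47 genes (21.3%) were higher on fibronectin and 0 were lower, with a median log2 change of 0.07, and 32 changes were positive and 15 negative. The share of higher genes was near the 19.9% of all genes tested and below the 23.3% of genes in the members' signal range, while 20.2% and 19.8% of those genes were lower. Leaving out 1 sample gave between 4 and 14 genes higher: 4 without collagen replicate 2, 4 without collagen replicate 3, 6 without fibronectin replicate 1 and 4 without fibronectin replicate 2. Without these samples, in the same order, 14.9%, 17.4%, 15.1% and 15.0% of all genes tested were higher. Centring on sample medians gave 18, and no filter on dim probe sets gave 4, while 27.2% and 8.26% of all genes were higher. The 15 negative changes ranged down to -0.13.

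Mrpl33, on chromosome 5 and the counterpart of a small bacterial ribosomal protein, had the smallest p-value of the large subunit. Its log2 signals were 5.65, 5.58 and 5.55 on collagen and 5.90, 5.93 and 5.82 on fibronectin, so the lowest fibronectin sample stood above every collagen sample. The means were 5.59 ± 0.053 and 5.88 ± 0.055 (SD, n = 3), a 1.22-fold rise (log2 change 0.29, SE 0.051, limma adjusted p = 0.00301). The call was lost when its 2 probe sets were averaged (0.08, adjusted p = 0.196), of which the dimmer lies below the filter.

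Mrpl47 belongs to the ring of proteins around the exit tunnel and had the largest positive change of any member. Its signals were 7.89, 7.79 and 7.72 on collagen and 8.19, 8.10 and 8.01 on fibronectin, with means of 7.80 ± 0.085 and 8.10 ± 0.092 (SD, n = 3). The rise was 1.23-fold (log2 change 0.30, SE 0.065, limma adjusted p = 0.00827). Both coatings were spread about equally, and no sample crossed over.

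Mrpl13, a bacterial-type protein on chromosome 15, had collagen samples that lay close together, at 8.93, 8.91 and 8.92. The fibronectin samples were at 9.12, 9.18 and 9.09. This was a 1.16-fold rise (log2 change 0.21, SE 0.044, limma adjusted p = 0.0072). All 3 of its tested probe sets had positive changes, from 0.21 to 0.27.

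Mrpl3 and Mrpl4 have bacterial counterparts close to the site of peptide bond formation and along the exit tunnel. Mrpl3 signals were 8.21, 8.14 and 8.16 on collagen and 8.41, 8.38 and 8.33 on fibronectin (log2 change 0.20, SE 0.045, limma adjusted p = 0.00906). Mrpl4 signals were 7.57, 7.47 and 7.46 on collagen and 7.66, 7.75 and 7.65 on fibronectin (log2 change 0.19, SE 0.053, limma adjusted p = 0.0246). For both genes every fibronectin sample exceeded every collagen sample, by a wider margin in Mrpl3. Averaging its 4 probe sets ended the call of Mrpl3 (0.14, adjusted p = 0.131). Mrpl4 lost its call without collagen replicate 2 (adjusted p = 0.0784), without collagen replicate 3 (0.072), without fibronectin replicate 2 (0.0859) and with no filter (0.0724).

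Mrpl15 and Mrpl12 also rose. Mrpl15, another bacterial-type protein, had signals of 8.16, 8.12 and 8.15 on collagen and 8.32, 8.25 and 8.29 on fibronectin (log2 change 0.14, SE 0.043, limma adjusted p = 0.0312). All 7 of its tested probe sets had positive changes, from 0.09 to 0.36. Mrpl12 forms part of the stalk that recruits translation factors and has been reported to bind the mitochondrial RNA polymerase. Its signals were 8.89, 8.84 and 8.83 on collagen and 9.06, 9.03 and 8.95 on fibronectin (log2 change 0.16, SE 0.048, limma adjusted p = 0.0327). The margins of both genes were narrow. Leaving out 1 sample ended the call of Mrpl15 for collagen replicate 2 (adjusted p = 0.092), collagen replicate 3 (0.0647) and fibronectin replicates 1 (0.0999), 2 (0.0507) and 3 (0.0862). The replicate block (0.0552) and no filter (0.095) did so too. Mrpl12 lost its call without collagen replicates 2 (0.0889) and 3 (0.0841), without fibronectin replicates 1 (0.106) and 2 (0.0945), and with no filter (0.0938).

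Among large subunit genes with negative changes the smallest p-values belonged to Mrpl34, Mrpl17, Mrpl24, Mrpl27, Mrpl22 and Mrpl43, none of which passed. Mrpl34 signals were 7.66, 7.62 and 7.56 on collagen and 7.50, 7.50 and 7.45 on fibronectin (log2 change -0.13, limma adjusted p = 0.0631), while its second, dimmer probe set had a change of 0.21. Mrpl17, a bacterial-type protein at the tunnel exit, had signals of 9.03, 8.98 and 9.04 on collagen and 8.88, 8.90 and 8.93 on fibronectin (log2 change -0.11, limma adjusted p = 0.0752). The samples of the 2 coatings did not overlap for either gene, and both passed with an adjusted p of 0.0326 and 0.0441 when the filter was set at the 75th percentile.

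Mrpl24 and Mrpl22 also sit at the tunnel exit. Mrpl24 was at 8.46, 8.35 and 8.37 on collagen and at 8.34, 8.30 and 8.28 on fibronectin (log2 change -0.09, limma adjusted p = 0.188). Mrpl22 was at 8.82, 8.73 and 8.72 on collagen and at 8.69, 8.70 and 8.68 on fibronectin (-0.06, adjusted p = 0.303). The coatings did not overlap for either, but the closest samples nearly touched. Mrpl27, a bacterial-type protein near the catalytic centre, was at 8.56, 8.44 and 8.49 on collagen and at 8.45, 8.45 and 8.33 on fibronectin (-0.09, adjusted p = 0.225). Mrpl43, a protein found in mitochondria only, was at 7.91, 7.84 and 7.76 on collagen and at 7.77, 7.80 and 7.74 on fibronectin (-0.07, adjusted p = 0.329). The coatings overlapped for Mrpl27 and Mrpl43.

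Mrpl32, whose protein must be cut by an inner membrane protease before it can join the ribosome, was at 7.997, 8.135 and 8.105 on collagen and at 8.231, 8.150 and 8.173 on fibronectin. The coatings did not overlap, but the change of 0.11 did not pass (limma adjusted p = 0.145). Of the other large subunit genes, 3 passed, and they are named here after their values were seen: Mrpl54 (log2 change 0.18, adjusted p = 0.0346), Mrpl35 (0.16, adjusted p = 0.0363) and Mrpl18 (0.14, adjusted p = 0.0396). Each of these calls was lost under at least 6 of the alternatives run, leaving out collagen replicate 2 or fibronectin replicate 2 among them, with adjusted p-values up to 0.453, 0.115 and 0.122. For Mrpl54 the mean of its 2 probe sets had the opposite sign, at -0.07. The remaining 30 large subunit genes did not pass and lay between -0.08 and 0.21.

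In the small subunit 11 of 29 genes (37.9%) were higher on fibronectin and 2 (6.9%) were lower. The shares were 19.9% and 20.2% of all genes tested, and 23.3% and 19.8% of genes in the members' signal range. The median log2 change was 0.07, and 25 changes were positive and 4 negative. Leaving out 1 sample gave between 5 and 9 genes higher, the fewest without fibronectin replicate 2 (5), collagen replicate 2 (6) and fibronectin replicate 1 (6). The mean of all probe sets and the replicate block each gave 7, and no filter on dim probe sets gave 4. With 1 sample left out, between 14.9% and 19.0% of all genes tested were higher. The share was 19.2% with the mean, 18.5% with the block and 8.26% with no filter. The 2 falls were kept under all 15 alternatives run.

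Mrps27, on chromosome 13, is a protein of the pentatricopeptide repeat family, whose members bind RNA, and is found in mitochondria only. Its signals were 5.98, 5.88 and 5.92 on collagen and 6.18, 6.19 and 6.23 on fibronectin. The means were 5.93 ± 0.049 and 6.20 ± 0.030 (SD, n = 3), a 1.21-fold rise (log2 change 0.27, SE 0.046, limma adjusted p = 0.00277). The distance between the coatings was several times the spread within either.

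Mrps35 and Mrps5 rose by similar amounts. Mrps35, found in mitochondria only, was at 8.03, 7.94 and 7.92 on collagen and at 8.23, 8.25 and 8.15 on fibronectin (log2 change 0.25, SE 0.051, limma adjusted p = 0.00678). Mrps5, whose bacterial counterpart lines the channel where messenger RNA enters, was at 6.24, 6.20 and 6.13 on collagen and at 6.51, 6.47 and 6.37 on fibronectin (log2 change 0.26, SE 0.055, limma adjusted p = 0.00779). No sample of either gene crossed over. The mean of the 5 Mrps5 probe sets did not pass (0.10, adjusted p = 0.224), as 2 dim ones were slightly negative.

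Mrps6, Mrps10 and Mrps15, all bacterial-type proteins, made up the rest of the 6 rises with the smallest p-values. Mrps6 was at 9.94, 9.90 and 9.84 on collagen and at 10.07, 10.11 and 10.08 on fibronectin (log2 change 0.19, SE 0.045, limma adjusted p = 0.0118). Mrps10 was at 7.80, 7.78 and 7.81 on collagen and at 7.97, 7.95 and 7.96 on fibronectin (log2 change 0.16, SE 0.040, limma adjusted p = 0.0139). Mrps10 changed less, and its samples of each coating lay closer together (SD 0.013 and 0.0090 against 0.051 and 0.016 for Mrps6). The SEs of these 2 genes were nearly equal all the same, as the moderated test draws the variance of each gene towards that of all genes. Mrps15 was at 7.44, 7.45 and 7.47 on collagen and at 7.62, 7.64 and 7.60 on fibronectin (log2 change 0.16, SE 0.041, limma adjusted p = 0.0161). With no filter Mrps10 (adjusted p = 0.053) and Mrps15 (0.0587) lost their calls, and Mrps15 also did without fibronectin replicate 2 (0.0606) and with the mean of its probe sets (0.0814).

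The largest change of any member was the fall of Mrps18a, on chromosome 17. Its signals were 8.23, 8.06 and 8.08 on collagen and 7.70, 7.73 and 7.68 on fibronectin. The means were 8.12 ± 0.096 and 7.70 ± 0.026 (SD, n = 3), so it was 1.34-fold lower on fibronectin (log2 change -0.42, SE 0.057, limma adjusted p = 0.000994). The fibronectin samples lay close together and far below the lowest collagen sample. Mammals have 3 copies of the bacterial S18 protein, and the Mrps18a copy sits in the large subunit despite its name. The other copies, Mrps18b and Mrps18c, which sit in the small subunit, each had a change of 0.07 (adjusted p = 0.3 and 0.279) and did not pass.

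Mrps34, also on chromosome 17, is needed for a stable small subunit and was the other member that fell. Its signals were 8.39, 8.37 and 8.40 on collagen and 8.21, 8.19 and 8.11 on fibronectin, so it was 1.16-fold lower (log2 change -0.22, SE 0.045, limma adjusted p = 0.00706). Mrps24 was at 8.15, 8.06 and 8.08 on collagen and at 8.09, 8.04 and 8.09 on fibronectin (-0.02, adjusted p = 0.746). Mrps12, the counterpart of a bacterial protein at the decoding site, was at 8.21, 7.99 and 7.99 on collagen and at 8.04, 8.06 and 8.06 on fibronectin (-0.01, adjusted p = 0.883). Their signs turned when samples were centred on their medians, to 0.03 and 0.04, and when collagen replicate 1 was left out, to 0.01 and 0.06. The coatings overlapped for Mrps24 and Mrps12 and did not for Mrps34.

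Mrps30 carries a small subunit name but sits in the large subunit. It was at 7.60, 7.55 and 7.58 on collagen and at 7.75, 7.77 and 7.67 on fibronectin (log2 change 0.15, SE 0.047, limma adjusted p = 0.0332). Its call was lost without collagen replicates 2 (adjusted p = 0.0983) and 3 (0.0725), without fibronectin replicates 1 (0.0965) and 2 (0.112), with the replicate block (0.0572) and with no filter (0.0954). A further 4 small subunit genes passed, named after their values were seen: Mrps31 (0.16, adjusted p = 0.0274), Mrps28 (0.14, adjusted p = 0.0395), Mrps9 (0.14, adjusted p = 0.0465) and Mrps26 (0.15, adjusted p = 0.0479). These lost their calls under at least 6 alternatives each, leaving out collagen replicate 2, fibronectin replicate 1 or fibronectin replicate 2 among them, with adjusted p-values up to 0.361, 0.118, 0.155 and 0.125. The remaining 14 small subunit genes did not pass and lay between 0.01 and 0.12.

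**Figure D2:**
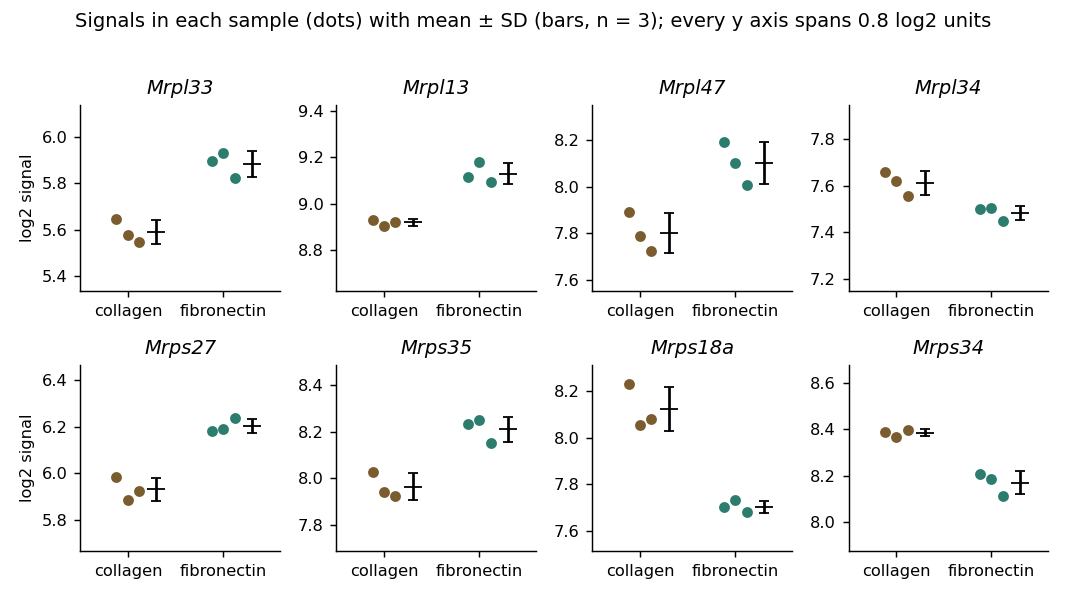
Log2 signals (y axis, of equal span in every panel) of 8 members in the 3 collagen and 3 fibronectin samples, with the mean and SD as bars beside the dots. The coatings did not overlap in any panel, with fibronectin higher for Mrpl33, Mrpl13, Mrpl47, Mrps27 and Mrps35 and lower for Mrpl34, Mrps18a and Mrps34; the change of Mrpl34 did not pass the test (limma adjusted p = 0.0631).

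The 2 subunits had nearly the same median change, which differed by -0.00090 (large minus small) on the log2 scale. Leaving out 1 sample moved this difference between -0.04 and -0.00084. The subunits were also counted with Mrps30 and Mrps18a moved to the large subunit, where their proteins sit. Every other gene, Mrps36 included, was left in the subunit of its name. Then 11 of 49 large subunit genes (22.4%) were higher and 1 (2.04%) was lower. Of 27 small subunit genes 10 (37.0%) were higher and 1 (3.7%) was lower. Among all genes tested 19.9% were higher and 20.2% lower, and in the members' signal range 23.3% and 19.8%. The large subunit share of higher genes was thus near that of all genes. The medians of the 2 subunits counted this way stayed at 0.07.

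Grouping by origin and place was done after the values had been seen. Of 46 members with a bacterial counterpart 15 (32.6%) were higher and 1 was lower, with a median change of 0.08. Of 28 found in mitochondria only 6 (21.4%) were higher and 1 was lower, with a median of 0.07, and this share was near the 19.9% of all genes tested that were higher. The order of the 2 groups turned between the subunits, with Mrps30 and Mrps18a counted as large. In the large subunit 31.0% of those with a bacterial counterpart and 10.5% of those in mitochondria only were higher. In the small subunit the shares were 35.3% and 44.4%. The difference between the groups was not tested. Origin was not assigned for Mrpl55 and Mrps36. Of 8 proteins at the tunnel exit Mrpl47 alone passed, and the median was -0.05, with 3 positive and 5 negative changes. Of 3 stalk proteins Mrpl12 passed, and of 5 proteins of the central protuberance, which faces the small subunit, Mrpl18 passed.

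The samples of a coating did not have equal levels of these transcripts. Relative to the mean over all samples, the large subunit averaged 0.03, -0.06 and -0.06 (log2) in collagen replicates 1, 2 and 3 and 0.05, 0.03 and 0.00125 in fibronectin replicates 1, 2 and 3. The small subunit averaged -0.00179, -0.06 and -0.05 on collagen and 0.05, 0.05 and 0.01 on fibronectin. For the large subunit the coatings overlapped, as collagen replicate 1 stood above fibronectin replicate 3, and for the small subunit they did not. Collagen replicate 1 was the highest collagen sample for 57 of 76 members, and fibronectin replicate 3 the lowest fibronectin sample for 47. All genes tested averaged 0.01 in collagen replicate 1 and -0.01 in fibronectin replicate 3. The median SD within a coating was 0.051 over the members and 0.070 over all genes tested, with the widest member, Mrpl1, at 0.121.

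**Figure D3:**
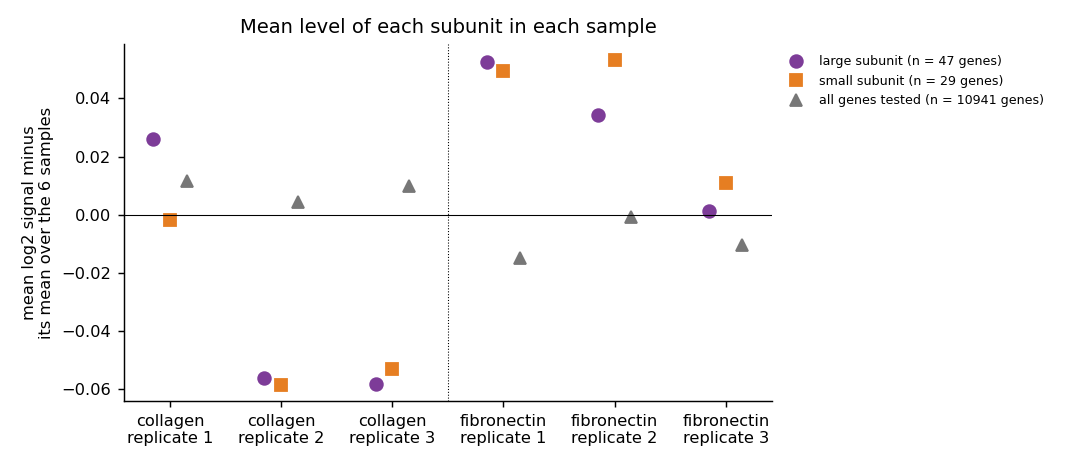
Mean log2 signal of the 47 large subunit genes, the 29 small subunit genes and all 10941 genes tested in each of the 6 samples, minus the mean of that set over the samples. Collagen replicates 2 and 3 sit lowest for both subunits, and collagen replicate 1 lies between them and the higher fibronectin samples.

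Many members were measured by several probe sets, which target different parts of a transcript. Of the 156 probe sets 134 were above the filter, and in a fit of all 19440 such probe sets 30 of them, of 20 members, were higher and 2 were lower. Over all those probe sets 17.7% were higher and 16.6% lower. The 58 tested probe sets that were not the brightest of their gene included 14 higher and 0 lower, with a median change of 0.11. Of 34 members with several tested probe sets 14 had changes of both signs: Mrpl11, Mrpl21, Mrpl27, Mrpl34, Mrpl38, Mrpl48, Mrpl49, Mrpl51, Mrpl52, Mrpl57, Mrps5, Mrps21, Mrps24 and Mrps25. Only Mrps5 among them passed in the fit of genes. For Mrpl1, Mrpl44 and Mrpl50 a dimmer probe set passed (0.24, 0.22 and 0.19, adjusted p = 0.00951, 0.0292 and 0.0234) where the brightest did not. Mrpl1 forms the mobile stalk by which spent transfer RNA leaves, and Mrpl44 carries an RNase III-like fold.

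**Figure D4:**
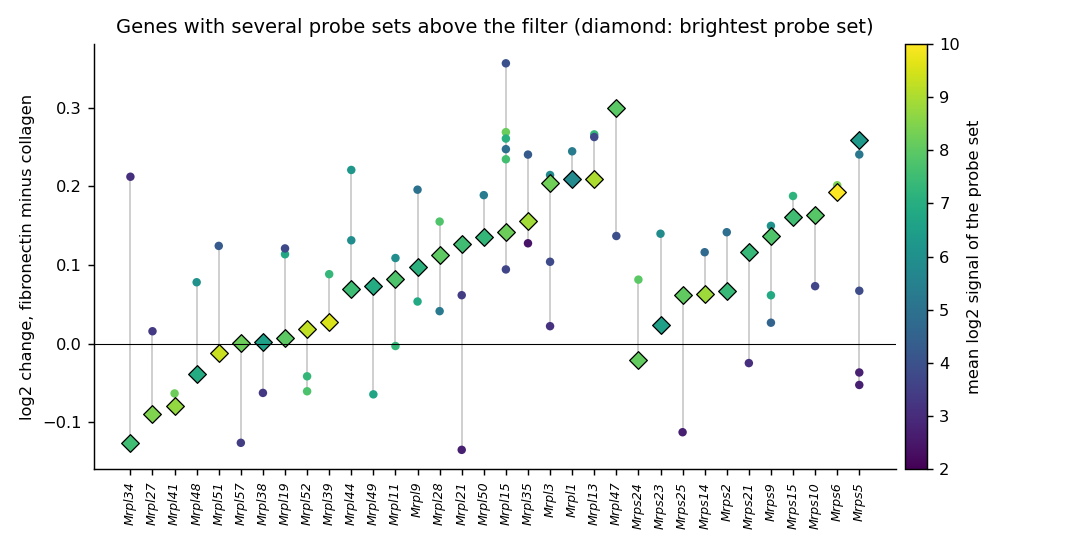
Log2 change (y axis) of every tested probe set of the 34 members with several, coloured by mean log2 signal, with the brightest probe set of each gene as a diamond. All 7 tested probe sets of Mrpl15 lie above 0, while Mrpl34 has 1 probe set on each side of 0.

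Genes that work with the mitoribosome were described from lists of gene names. Of 5 mitoribosome proteins under other names 4 were measured and none passed: Chchd1 (log2 change 0.10, adjusted p = 0.197), Ptcd3 (0.08, adjusted p = 0.248), Dap3 (0.05, adjusted p = 0.427) and Gadd45gip1 (-0.04, adjusted p = 0.652). Of 11 translation factors, which start, lengthen and end the chain, 0 passed, with a median of 0.05. Among all genes tested 40.1% passed in either direction. Guf1 (0.19, adjusted p = 0.0766), Mrrf (0.11, adjusted p = 0.0779), Oxa1l (0.12, adjusted p = 0.113), which inserts new chains into the membrane, and the elongation factor Tufm (0.11, adjusted p = 0.137) had the smallest p-values.

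Of 27 tested genes of mitoribosome assembly 6 were higher and 1 was lower, with a median of 0.10. Their 22.2% higher was near the 19.9% of all genes tested, and 3.7% were lower, against 20.2%. Gtpbp10, a GTPase of large subunit assembly, rose by 0.36 (limma adjusted p = 0.000887), with signals of 6.24, 6.15 and 6.16 on collagen and 6.55, 6.50 and 6.58 on fibronectin. The ribosomal RNA methyltransferase Mrm3 rose by 0.26 (adjusted p = 0.0126) and Mettl17 by 0.15 (adjusted p = 0.0284). Mpv17l2, a membrane protein that associates with the large subunit, was at 6.15, 6.12 and 6.24 on collagen and 5.91, 5.86 and 5.93 on fibronectin, a change of -0.27 (adjusted p = 0.00388). No sample crossed over for Gtpbp10 or Mpv17l2.

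Of 21 genes that maintain mitochondrial DNA and RNA 7 (33.3%) were higher and 0 lower, with a median of 0.12, against 19.9% and 20.2% of all genes tested. They included Tfam, which packages mitochondrial DNA and starts its transcription (0.31, adjusted p = 0.0136), the RNA degrading enzyme Pnpt1 (0.27, adjusted p = 0.00377), the DNA polymerase subunit Polg2 (0.19, adjusted p = 0.0195) and Trmt10c of the transfer RNA processing enzyme (0.15, adjusted p = 0.0305). Of 9 regulators of mitochondrial biogenesis whose mean lay above the filter in both coatings 5 were higher and 0 lower, with a median of 0.15: Myc rose by 0.32 (adjusted p = 0.00122), and Gabpb2 and Gabpb1, partners of the Ets factor Gabpa, rose by 0.27 and 0.23 (adjusted p = 0.00714 and 0.0206). The tenth regulator, the coactivator Ppargc1a, had signals of 2.29, 2.24 and 2.28 on collagen, below the filter level of 2.33, and of 2.54, 3.24 and 2.66 on fibronectin. It was tested because of its fibronectin samples alone, so no call is given for it. Gabpa (0.22, adjusted p = 0.0376) and Yy1 (0.15, adjusted p = 0.0433) were picked out after their values were seen because their motifs had been searched, as was Nrf1 (0.00950, adjusted p = 0.918).

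Of the 72 genes of these 5 lists above the filter in both coatings, 18 were higher and 1 was lower. Among all genes tested 19.9% were higher and 20.2% lower. Counts under other settings were made only with Ppargc1a in the lists. No call is given for it, so each of these counts may be 1 too high. From 19 with Ppargc1a, the count of higher genes became 12 without collagen replicate 1 and 10 without collagen replicate 2. Without fibronectin replicates 1, 2 and 3 there were 9, 10 and 11. The count fell least without collagen replicate 3. It was 6 with no filter and 35 after centring, where 8.26% and 27.2% of all genes were higher. Leaving out 1 sample also lowered the share of all genes, to between 14.9% and 19.0%.

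The cytosolic ribosome and the respiratory chain were described in the same way. Of 41 tested cytosolic ribosomal protein genes 2 were higher and 0 lower, with a median of 0.03. These were Rpl14 (0.32, adjusted p = 0.00159) and Rpl12 (0.27, adjusted p = 0.0181). Of 72 tested respiratory chain subunit genes 4 were higher and 4 lower, with a median of -0.00507. Cox8b, a cytochrome oxidase subunit of mature muscle, had the smallest p-value and a log2 change of -1.35 (adjusted p = 7.19e-05), followed by Ndufa6 (-0.27, adjusted p = 0.00559), Cyc1 (0.17, adjusted p = 0.013) and Ndufb6 (0.17, adjusted p = 0.0143). For the respiratory chain this is 5.56% in each direction, and for the cytosolic ribosome 4.88% higher. Among all genes tested 19.9% were higher and 20.2% lower. The differences between these lists and the mitoribosomal members were not tested.

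Markers of cell state moved with the coating far more than the members did. All 14 tested genes of differentiating muscle were lower on fibronectin (median -0.84), and their summed linear signal was 1004 to 1059 on collagen and 499.9 to 598.2 on fibronectin. Of 13 genes of cycling cells 9 were higher and 0 lower (median 0.42), with a summed signal of 6716 to 6898 on collagen and 7965 to 8060 on fibronectin. The part of either in the changes of the mitoribosomal genes was not tested. Of 8 myoblast markers 2 were higher and 2 lower (25% each), against 19.9% and 20.2% of all genes tested. The changes of the 8 ran from -0.23 to 0.31, with sums of 3167 to 3279 on collagen and 3127 to 3277 on fibronectin. Among those that did not pass were Myod1, Myf5 and Pax7, which were present in every sample. Of 9 fibroblast markers 3 lay above the filter in both coatings, of which 2 were higher and 1 lower, and Cd34 did so on fibronectin alone. The sum over the 9 was 666.1 to 728.5 on collagen and 804.8 to 857.9 on fibronectin. All 7 endothelial markers and 5 of 7 immune markers, Ptprc included, lay below the filter. The immune marker Cd68 fell by 1.28 (adjusted p = 0.000355), and the sum of that list was 42.58 to 50.76 on collagen and 29.24 to 35.63 on fibronectin.

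Across all settings tried, 7 of the 23 members that passed kept their call under every one of 15 alternatives: Mrpl13, Mrpl47, Mrps6, Mrps27 and Mrps35 as higher, and Mrps18a and Mrps34 as lower. The range of the change over these alternatives was 0.25 to 0.33 for Mrps27 and -0.45 to -0.36 for Mrps18a. Of the 53 members that did not pass, 11 passed under at least 1 alternative, most often Mrpl42 (8 of 15), whose change was 0.16 (adjusted p = 0.0558).

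**Figure D5:**
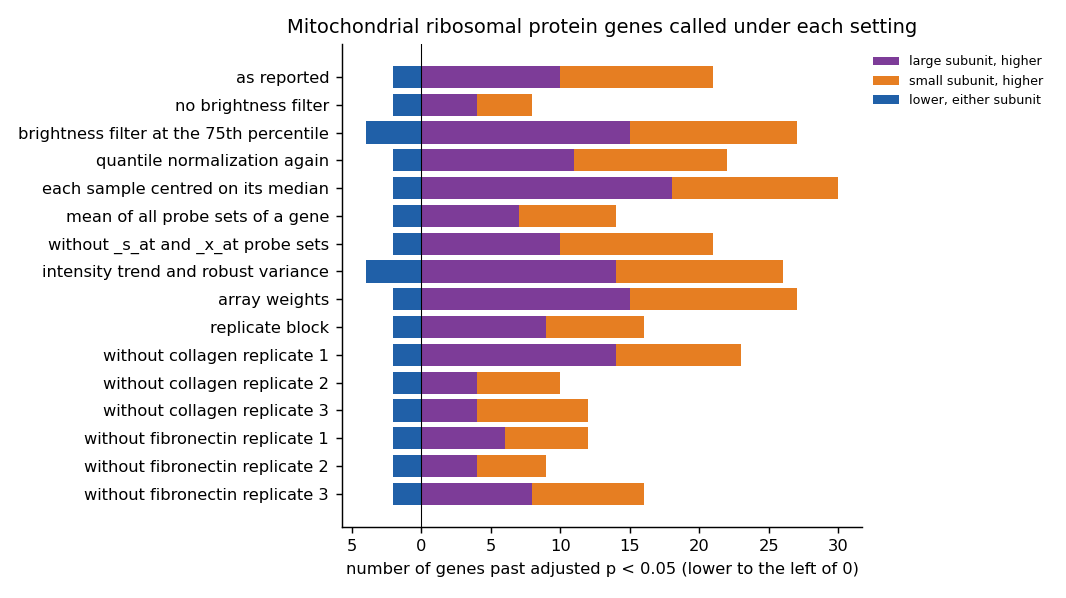
Number of members past an adjusted p of 0.05 (x axis) under each setting, with higher members to the right of 0, split by subunit, and lower members to the left. Higher members range from 8 with no brightness filter to 30 after centring, and lower members from 2 to 4. The share of all genes that were higher, not drawn, was 8.26% and 27.2% in these 2 settings.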

How the data were processed

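The authors deposited log2 probe set signals for 45101 probe sets in 6 samples, and per the submitters' processing notes these came from Affymetrix Expression Console and RMA, with versions and settings not given in the sources used here. RMA normalises by quantiles, so a change shared by most genes is removed, and it compresses changes of dim probe sets. Sample medians were 2.35 to 2.39 on collagen and 2.30 to 2.34 on fibronectin. Groups came from the sample titles. Genes were named from the platform annotation, updated through RefSeq (GRCm38.p6), where 18032 of 18194 gene identifiers were found. A single gene was assigned to 34945 probe sets, several genes to 932, which stayed unnamed, and no gene to 9224, among them 64 controls.

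Each gene was its probe set with the highest mean, and genes below the median probe set (2.33) were not tested. The deposited values were fitted as they were with limma 3.58.1 in R 4.3.3 (lmFit and eBayes, two-sided, no covariates, 4 residual and 3.81 prior degrees of freedom, Benjamini-Hochberg over 10941 genes, threshold 0.05), after the procedure had been tested on simulated data. An exact permutation test of 3 against 3 samples cannot give a p below 0.1. The number of samples limits the precision, with a median SE of 0.06.

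The members, gene lists, motifs and naming rule were chosen with earlier results of these data known. The rule named, per subunit, the 6 rises and 6 falls with the smallest p-values, Mrpl12, Mrpl32, Mrps18a and Mrps30, up to 4 genes per related list, and members with probe sets of both signs. The fit of single probe sets was added after seeing the data. Alternatives were 2 other filters, quantile normalisation again, centring, the mean of all probe sets, leaving out less specific probe sets, array weights, robust variance with an intensity trend, a replicate block, subunit by structure and leaving out each sample. Python 3.11.15 with matplotlib 3.10.9 drew the figures.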

Additional observations from a re-analysis of the deposited data

How the results depend on the processing

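With no brightness filter 8 members were higher (4 large, 4 small) and 6 genes of the related lists, and with a filter at the 75th percentile 4 members were lower (2 large). Among all genes 8.26% were higher with no filter, 27.2% after centring and 14.9% to 19.0% with 1 sample left out. Counts of related genes in this section may include Ppargc1a, for which no call is given. Centring each sample gave 18 large subunit genes higher, medians of 0.12 (large) and 0.12 (small) and 35 related genes higher. The mean of all probe sets gave 7 small subunit genes higher, with a large minus small difference of -0.023. An intensity trend with robust variance gave 4 members lower (2 large), and array weights gave a difference of -0.026 and 2 related genes lower. Counting subunits by structure gave 1 lower gene in each. Leaving out 1 sample gave 9 to 23 members higher (4 to 14 large, 5 to 9 small), medians of 0.03 to 0.09 (large) and 0.062 to 0.10 (small), a difference of -0.043 to -0.00084 and 9 to 17 related genes higher. The sign of Mrpl34 turned with the mean of its probe sets (0.043). Mrps24 turned after centring (0.033) and with the mean of its probe sets (0.030), and Mrps12 after centring (0.040) and with array weights (0.029). Leaving out 1 sample gave -0.040 (without collagen replicate 2) to 0.0074 (without collagen replicate 1) for Mrps24 and -0.049 to 0.058 for Mrps12 (the same samples). The cause was not tested. Same-numbered samples of the coatings deviated together with correlations of 0.101, -0.0091 and 0.078 over 10941 genes, and collagen replicate 2 correlated best with fibronectin replicate 3 (0.0972), so the number was not taken as a pairing. With the replicate block 16 members were higher, 14 of them among the 21, with 7 in the small subunit, and 2 were lower. Collagen replicate 1 had the lowest array weight (0.43). Signals give no depth, and 3 samples a coating limit the precision.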

Other observations

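Genes named with a member on the same probe set were left out of the counts, and 4 such probe sets had a mitoribosomal name. A probe set shared by Mrpl30 and Gm6238 was at 8.72, 8.63 and 8.54 on collagen and at 8.81, 8.82 and 8.84 on fibronectin, a difference of 0.20 on the log2 scale. A dimmer one for the same pair, below the filter, differed by 0.14. One shared by Mrpl53 and Ccdc142 was at 8.16, 8.13 and 8.17 on collagen and at 7.975, 7.991 and 8.003 on fibronectin, a difference of -0.17. The coatings did not overlap for either of these brighter probe sets. One shared by Mrps34 and Nme3 was at 4.96, 4.87 and 4.80 on collagen and at 4.34, 4.63 and 4.61 on fibronectin, a difference of -0.34, so it lay in the direction of the Mrps34 probe set counted among the members. None of these differences was tested.

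Among the 67 members with a promoter window, 25 (37.3%) had the start of a gene on the other strand within 1000 bases, transcribed away from it, against 20.5% of 8903 tested genes. The Mrps27 start lies 108 bases from that of Ptcd2, another pentatricopeptide repeat gene, and both were higher on fibronectin (0.27 and 0.25, limma adjusted p = 0.00277 and 0.00599). Several other pairs had unlike changes. Mrpl47 rose by 0.30 while Ndufb5, 308 bases away, had a change of 0.00081 (adjusted p = 0.989). Mrpl14 had a change of -0.03 (adjusted p = 0.625) while Tmem63b, 131 bases away, fell by 0.41 (adjusted p = 0.000329). Mrpl2 had a change of 0.07 (adjusted p = 0.352) while Klc4, 141 bases away, fell by 0.44 (adjusted p = 0.000456). Mrpl51 had a change of -0.01 (adjusted p = 0.849) while Ncapd2, a condensin subunit 614 bases away, rose by 0.34 (adjusted p = 0.0012). Mrpl46 and Mrps11, 1 of each subunit, start 42 bases apart and had changes of 0.08 and 0.08, neither of which passed (adjusted p = 0.306 and 0.426). These pairs were picked out after their values were seen.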
